A study of Mus musculus with 4 samples.

Results

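The subunits of the mitochondrial respiratory chain and ATP synthase that are encoded in the nucleus were taken from the array annotation by their gene symbols (Nduf, Sdh, Uqcr, Cox and Atp5 names of structural subunits). The rule found 78 genes among 12393 with a single symbol: 33 of complex I, 4 of complex II, 8 of complex III, 16 of complex IV and 17 of complex V. They were covered by 147 probe sets out of 22626 that are not controls. Another 7 probe sets carry a subunit symbol together with a further symbol, and no gene is named from those. Genes were assigned to complexes by symbol, so Ndufa4, now assigned to cytochrome c oxidase (complex IV), is counted with complex I throughout.

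Oxidative phosphorylation moves electrons from NADH and succinate through complexes I to IV to oxygen, pumps protons across the inner mitochondrial membrane and lets them flow back through complex V, the ATP synthase. Complex I oxidises NADH, complex II is succinate dehydrogenase of the citric acid cycle, complex III passes electrons to cytochrome c, and complex IV reduces oxygen. Nuclear subunit genes are known targets of the transcription factors NRF1, GABP, ERR-alpha and YY1, and are expressed in all cells with mitochondria, including fibroblasts.

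RNA came from CH10T1/2 cells, a mouse embryonic fibroblast line, and each of the 4 groups had 1 Affymetrix Mouse Genome 430A 2.0 array. All 4 groups are stable transfectants, so the controls also carry a transfected PTHR1, the receptor of PTH and PTHrP. One line expresses the wild-type receptor (WT line) and the other the R150C variant known from enchondromas, which are benign cartilage tumours (R150C line). The groups are the WT line without ligand, the WT line with PTHrP, the R150C line with carrier and the R150C line with PTHrP, where PTHrP was given at 1e-07 M for 1 h after a night in serum-free medium; for the WT line without ligand the sample's labels say control, and the series text says carrier. Each receptor is represented by 1 transfected line, so receptor and line cannot be told apart, and no single-array value carries a replicate error.

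Signals are the deposited fluorescence intensities on a linear scale. The 4 signals of a gene are always listed as WT control, WT PTHrP, R150C control and R150C PTHrP. Differences were taken from quantile normalized values of log2(signal + 16), a scale that understates the change of dim genes. Fewer cells of a type and less RNA per cell cannot be told apart in such bulk samples. The brightest probe set stood for each gene, and 6197 genes with a mean at or above the median over genes (a signal of 62.6) were kept, among them 72 of the 78 subunit genes. Of these 72, 69 lay in the brightest 25% of the kept genes. The spread of an array-to-array difference, read from the departure from additivity, was 0.24 over the kept genes and 0.20 over the subunits (SD, log2). All 10 fibroblast markers were kept, while none of the 3 endothelial, 3 epithelial and 5 striated muscle markers was. Of the other lists, 2 of 3 cartilage markers (Sox9 and Col2a1), 1 of 4 macrophage markers (Csf1r) and 1 of 3 adipocyte markers (Fabp4) were kept. Gapdh control probe sets at the 3' and 5' ends, whose ratio reflects RNA integrity and labelling, gave ratios of 0.845, 1.17, 0.991 and 1.21.

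No subunit gene passed the test for a difference between the lines or for an effect of PTHrP common to both lines. In the WT line after PTHrP most subunits read higher, complex I above all: its median difference was 0.22 (log2), and 31 of its 33 genes lay above 0. The R150C line showed no such shift, with a complex I median of 0.00 and 17 of 33 genes above 0. Under PTHrP the R150C line read lower than the WT line in 32 of 33 complex I genes, a comparison that shares the WT PTHrP array with the first. With 1 array per group these single comparisons have no test.

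**Figure D1:**
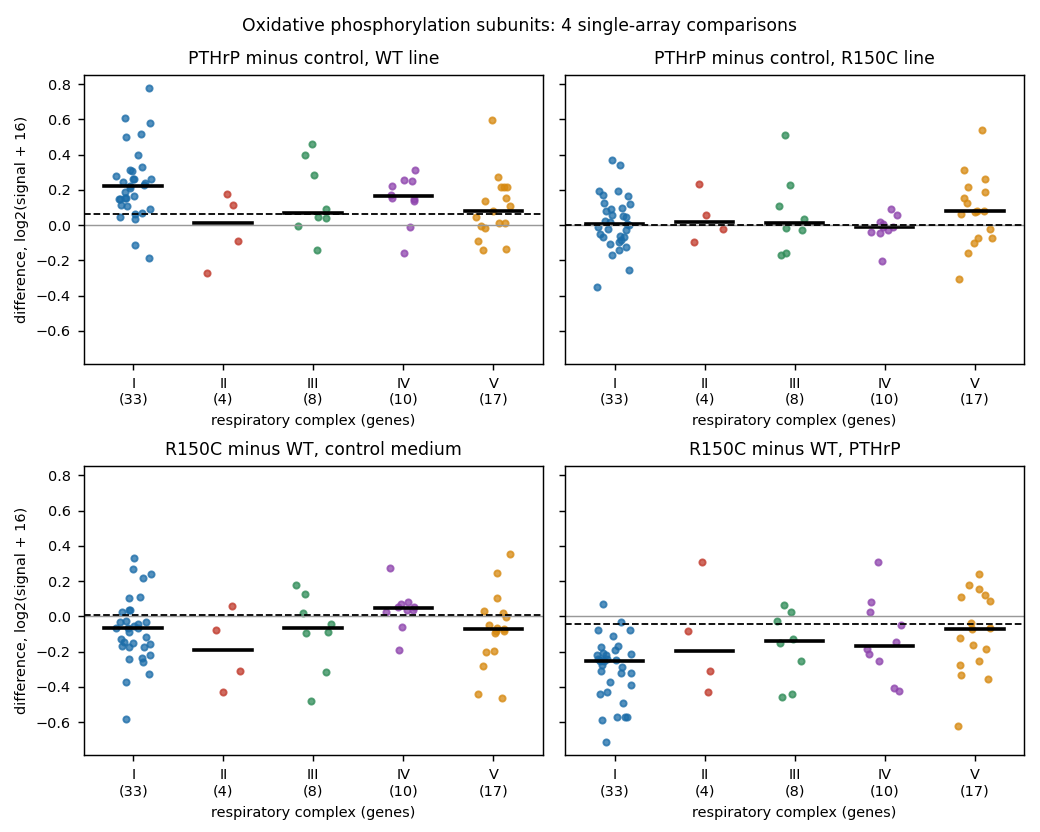
Difference of each kept subunit gene (points) on the log2(signal + 16) scale in 4 comparisons of single arrays, by respiratory complex, with the number of genes in parentheses; black bars are the medians of a complex and the dashed line is the median of all 6197 kept genes. In the WT line the complex I median is 0.22 against 0.06 for all kept genes, and in the R150C line it is 0.00.

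Over all 72 subunits, the median PTHrP difference in the WT line was 0.15, against 0.06 over the kept genes and 0.05 over the brightest 25% of them. The difference lay above 0 in 59 of the 72, or 81.9%, against 60.8% of all kept genes, and below 0 in 13, against 39.1%. For the R150C line that median was 0.01 (kept genes 0.00), and 38 of 72 lay above 0, against 49.8%, and 34 below, against 50%. Before this normalization the deposited median signal of the 72 subunits was 883.4, 1079, 850.1 and 886.9. The WT PTHrP array gave the highest normalized value of the 4 in 53 of 72 subunits, or 73.6%, and in 35.6% of all kept genes. The Gapdh ratio was higher in both PTHrP arrays, while the subunit median exceeded that of the kept genes by 0.09 (WT line) and 0.01 (R150C line); its part in the WT value was not tested.

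Counted at 1.5-fold, 3 subunits were higher after PTHrP in the WT line and 0 lower, where 2.15% and 1.57% of the kept genes were. In the R150C line 0 were higher and 0 lower, against 1.31% and 0.484%. The additive limma model over the 4 arrays called 0 of 72 subunits for PTHrP, with Benjamini-Hochberg adjustment at 0.05, as it called 0% of the kept genes. Without adjustment 1 subunit, Uqcr10, had a p under 0.05, where 3.2% of the kept genes were higher at that level. Across the complexes, the WT median ran from complex I (0.22) through IV (0.16), V (0.08), III (0.07) and II (0.01). The quartiles of complex I ran from 0.11 to 0.30 and those of complex V from 0.00 to 0.21, so the complexes overlap.

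Among the complex I genes, Ndufb7, an accessory subunit of the membrane arm, gave nearly equal values in both its probe sets. The brighter one read 695.8, 1107.9, 755.8 and 731.7, with the WT PTHrP array alone high. Its difference was 0.61 (WT line) and -0.07 (R150C line), and its second probe set gave 0.62 and -0.07. Ndufa13, an accessory subunit also known as GRIM-19, had the highest WT difference of the 72, with signals of 903.0, 1681.7, 1072.7 and 1072.4. Its differences were 0.78 and -0.01, and 1 probe set alone carries its symbol. That probe set is of the _s_at kind, which may detect several transcripts.

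Ndufs8, a core subunit that holds iron-sulfur clusters, had probe sets that disagreed. Its brightest read 879.1, 1396.5, 926.3 and 828.9, and differed by 0.58 with PTHrP (WT line). Its 6 probe sets above the filter level ran from -0.06 to 0.74 in that comparison, and without probe sets of the _s_at and _x_at kind, which may detect several transcripts, its value was -0.02. Of the other core subunits named, Ndufv1, which binds the flavin where NADH is oxidised, read 575.0, 671.8, 496.1 and 567.2, with differences of 0.17 in each line. Ndufs1, the largest iron-sulfur subunit, read 330.7, 359.5, 299.9 and 292.2, and differed by 0.09 and -0.05. Ndufa10, an accessory subunit, was the lowest of complex I in the WT line at -0.19 (544.1, 492.7, 492.2 and 518.5). The mean of its probe sets gave 0.09, but its other probe set (6.2, 10.2, 29.8 and 15.8) lay below the filter level.

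**Figure D2:**
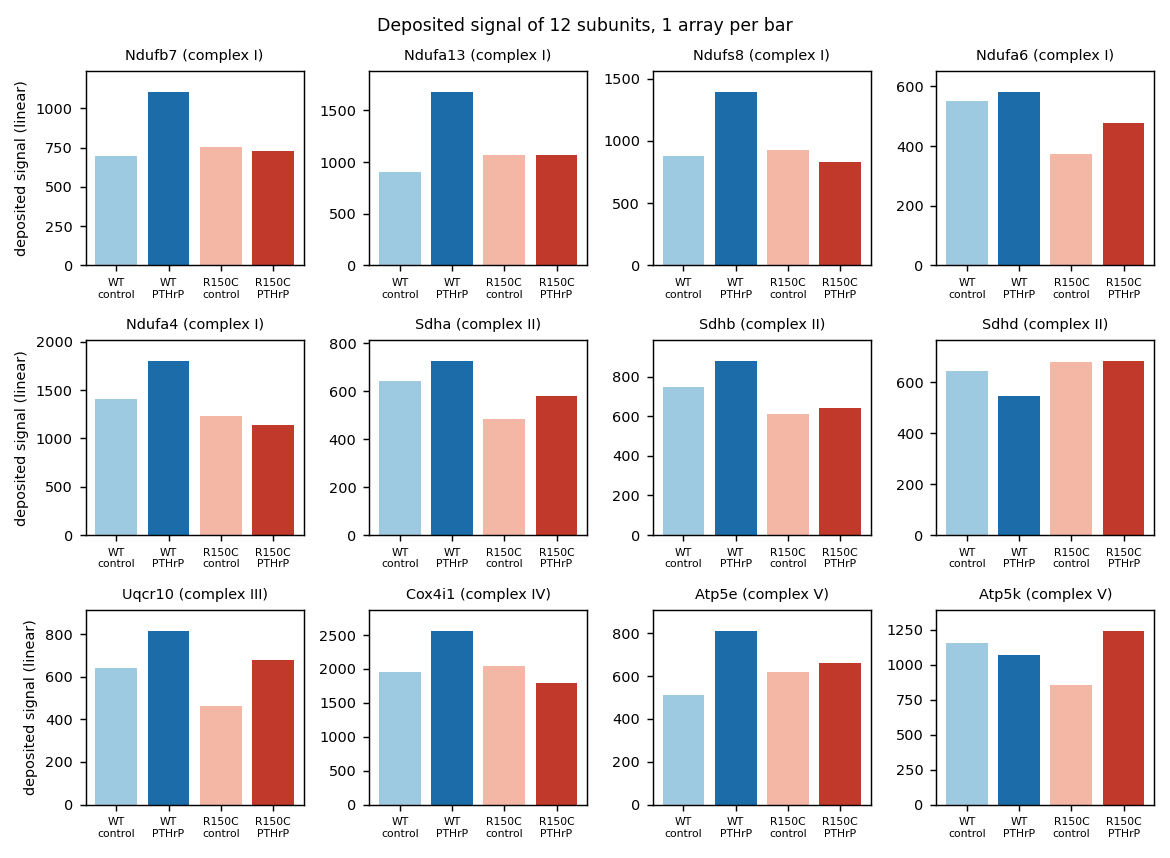
Deposited linear signal of 12 subunits (vertical axes from 0, each panel with its own scale), 1 array per bar: WT line in blue and R150C line in red, control light and PTHrP dark. Ndufb7, Ndufa13 and Ndufs8 stand out in the WT PTHrP array, Sdha and Sdhb are lower in both R150C arrays, and Atp5k is high in the R150C PTHrP array.

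In complex V, Atp5e, the epsilon subunit of the F1 part, read 511.2, 812.9, 621.4 and 662.6. Its differences were 0.60 and 0.08, and its only probe set is also of the _s_at kind. The F1 subunits that form the catalytic ring were near 0: Atp5b, the catalytic beta subunit, read 3233.7, 3287.6, 3059.6 and 3306.3, with differences of -0.14 and 0.12. For Atp5a1, the alpha subunit, the signals were 2633.6, 2634.8, 2185.1 and 2409.6, and the differences -0.09 and 0.15. Atp5o, which links F1 to the stalk as OSCP, read 1236.0, 1280.6, 1078.4 and 1353.1, with differences of 0.00 (WT line) and 0.31 (R150C line). The largest PTHrP difference of any subunit in the R150C line, 0.54, was in Atp5k, subunit e of the membrane part, at 1152.2, 1067.3, 852.9 and 1244.5. A probe set of Atp5k without the _x_at ending gave -0.31 there, so its probe sets disagree in direction. Atp5md, the small membrane subunit DAPIT, was the lowest of complex V in the R150C line, with a difference of -0.31 against 0.22 in the WT line.

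In the WT line 6 of 8 complex III genes and 8 of 10 complex IV genes lay above 0 after PTHrP. Uqcr10, a small subunit of complex III, read 642.8, 816.7, 464.0 and 676.3, higher after PTHrP in both. Over both lines limma gave it 0.40 (SE 0.15, adjusted p = 0.898), and 1 of its 3 probe sets had the other sign in the WT line (-0.28). Uqcr11, another small subunit, read 809.9, 1190.1, 844.0 and 848.2, and differed by 0.46 (WT line) and -0.02 (R150C line). Uqcrfs1, the Rieske iron-sulfur protein, stood lowest in the WT line at -0.14, and Uqcrh, the hinge protein, lowest in the R150C line at -0.17. The core protein gene Uqcrc1 differed by 0.05 and -0.16.

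In complex IV, Cox6b1, a subunit facing the intermembrane space, had the highest WT value at 0.31, with signals of 1870.8, 2550.6, 1971.2 and 2042.8. Cox4i1, a regulatory subunit that binds adenine nucleotides, read 1952.8, 2566.1, 2047.5 and 1792.8, and differed by 0.26 (WT line) and -0.20 (R150C line). Cox5a, which binds next to it, stood lowest in the WT line at -0.16, and 1 of its 3 probe sets, with signals of 821.3, 417.9, 664.5 and 497.3, lay far below the others there. Of the complex II genes, the membrane anchors Sdhc and Sdhd differed by -0.09 and -0.27 in the WT line, and the catalytic subunits Sdha and Sdhb by 0.12 and 0.18.

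**Figure D3:**
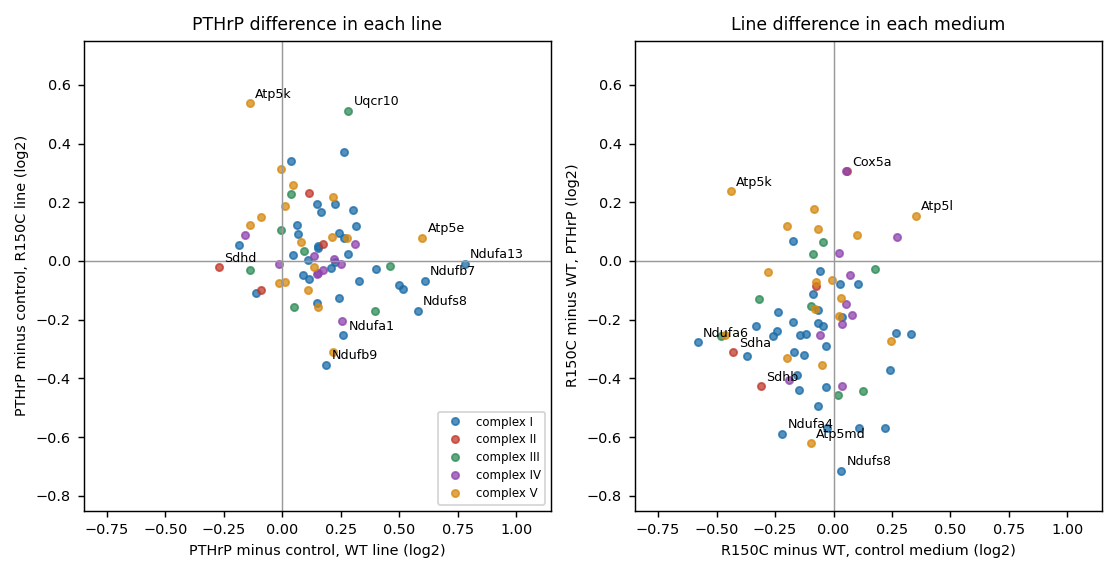
Left, PTHrP difference in the WT line (horizontal) against the R150C line (vertical); right, line difference in control medium (horizontal) against PTHrP (vertical), all on the log2(signal + 16) scale with 1 point per kept subunit gene, coloured by complex. On the left most points lie right of 0 while they scatter evenly above and below it (59 and 38 of 72 above 0), and on the right most lie below 0 (59 of 72).

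The responses of the lines share no array. Of the 72 subunits 31 were above 0 in both lines, 6 below 0 in both and 35 had opposite signs, or 48.6%, against 48.2% of all kept genes. Of the 6197 kept genes 1930 were above 0 in both lines and 1261 below 0 in both. The difference between the responses, R150C minus WT, had a median of -0.13, against -0.06 over the kept genes, and of -0.17 in complex I and -0.20 in complex IV. It lay above 0 in 23 subunits and below 0 in 49, where 42.7% and 57.3% of the kept genes did, and passed 1.5-fold upward in 1 and downward in 4, against 3.7% and 5.18%. It had no test, since the 4 arrays leave no residual for it.

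Promoter sequences of 250 bases before to 50 after the start site, from RefSeq on GRCm38.p6, were matched to 64 of the 78 genes, and were searched on both strands for 4 motifs tied to respiratory genes, of which YY1's was added last. CCGGAAG, the core bound by ETS factors such as GABPA, was in 17 of 64 (26.6%), against 23.8% of kept genes and 9.93% of all genes with a promoter in the table. AAGATGGC (YY1) was in 9 (14.1%, against 6.51% and 3.19%), AAGGTCA (bound by a single ERR unit) in 7 (10.9%, against 3.46% and 5.38%), and the palindromic NRF1 motif in 4 (6.25%, against 2.52% and 1.07%). These matches describe letters and not bound sites. The 200 bases before the start site are shown, in the direction of the gene, with the motif in capitals, for Ndufb7 and Atp5e, with high PTHrP differences in the WT line, Sdhd, with the lowest there, and Atp5k, with the highest in the R150C line, all chosen among genes with a motif in this stretch:
Ndufb7, chr8:83566558-83566757, plus strand: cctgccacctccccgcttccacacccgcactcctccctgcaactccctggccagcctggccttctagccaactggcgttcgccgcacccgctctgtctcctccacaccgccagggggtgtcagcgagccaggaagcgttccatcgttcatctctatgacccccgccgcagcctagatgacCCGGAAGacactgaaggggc
Atp5e, chr2:174464102-174464301, minus strand: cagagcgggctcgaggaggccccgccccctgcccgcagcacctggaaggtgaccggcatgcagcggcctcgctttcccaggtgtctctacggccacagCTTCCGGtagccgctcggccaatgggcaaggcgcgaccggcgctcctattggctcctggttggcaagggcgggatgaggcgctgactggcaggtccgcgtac
Sdhd, chr9:50603850-50604049, minus strand: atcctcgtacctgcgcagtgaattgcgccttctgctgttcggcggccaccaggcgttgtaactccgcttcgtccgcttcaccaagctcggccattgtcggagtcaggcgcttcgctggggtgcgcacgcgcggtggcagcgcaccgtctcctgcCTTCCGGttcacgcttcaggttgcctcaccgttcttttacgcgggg
Atp5k, chr5:108434400-108434599, minus strand: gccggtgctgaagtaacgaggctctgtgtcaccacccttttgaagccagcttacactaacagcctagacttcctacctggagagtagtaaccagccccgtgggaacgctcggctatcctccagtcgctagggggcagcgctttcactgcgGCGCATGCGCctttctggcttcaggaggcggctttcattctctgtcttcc
The capitals mark the ETS core in Ndufb7, Atp5e and Sdhd (on the opposite strand in Atp5e and Sdhd) and the NRF1 motif in Atp5k. Its first base lies 20 bases before the start site in Ndufb7, 102 in Atp5e, 46 in Sdhd and 50 in Atp5k. Atp5k also holds the ETS core, in the part of its window not shown. AAGGTCA lies in the unshown part of the window in Atp5k, Atp5e and Sdhd. Ndufa13, with the highest WT difference, has none of the 4 motifs, and the ETS core was in 4 of 30 complex I promoters (13.3%).

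Between the lines, no subunit was called by limma over both media, while 8.12% of the kept genes were (5.21% higher in the R150C line and 2.9% lower). The median subunit difference over both media was -0.14, against -0.03 over the kept genes. At an unadjusted p under 0.05, 7 subunits were lower in the R150C line and 0 higher, or 9.72% against 11.3% of kept genes for lower. With an intensity trend in limma's prior, the smallest adjusted p among subunits was 0.057. Of the kept genes that setting called 397 higher and 221 lower, against 323 and 180 without the trend. The normalized values of both R150C arrays lay below both WT arrays in 30 of 72 subunits, or 41.7%, where 28% of the kept genes did. Both lay above in 6 of 72, or 8.33%, where 25.3% of the kept genes did. Complex I had 18 of 33 below and 0 above.

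In control medium the median was -0.07, against 0.01 over the kept genes, and 46 of 72 lay below 0 and 26 above, where 48.9% and 50.9% of kept genes did. With centring on all probe sets instead, 25 of 72 lay below 0 (34.7%, against 39.6% of kept genes), so this direction turns with the scaling. Under PTHrP it was -0.22, against -0.05, and 59 of 72 lay below 0 and 13 above, where 55.6% and 44.3% did. The control comparison does not use the WT PTHrP array. At 1.5-fold 0 subunits were lower and 0 higher in control medium, against 4.63% and 7.44% of kept genes, and 3 were lower and 0 higher under PTHrP, against 4.73% and 6.07%.

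In succinate dehydrogenase, Sdha, Sdhb and Sdhc lay below 0 between the lines in both media, and Sdhd above. Sdha, the flavoprotein that oxidises succinate, read 643.0, 725.3, 481.8 and 578.6, with both R150C arrays lower. Its difference was -0.43 in control medium and -0.31 under PTHrP, and -0.37 over both (SE 0.14, limma's adjusted p = 0.162). Sdhb, its iron-sulfur partner, read 748.8, 880.3, 612.7 and 645.1, again lower in both R150C arrays. It differed by -0.31 and -0.43, and by -0.37 over both (SE 0.14, limma's adjusted p = 0.163). Sdhc read 502.7, 486.4, 484.1 and 456.7, and differed by -0.08 in each medium, and Sdhd read 645.6, 546.1, 678.6 and 682.8, higher in both R150C arrays, by 0.06 and 0.31. The less bright probe set of Sdha gave -0.16 and -0.22.

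The lowest value between the lines over both media was in Ndufa6, an accessory subunit of the matrix arm, with signals of 549.9, 582.5, 371.8 and 477.9. Its differences were -0.58 in control medium and -0.28 under PTHrP, and -0.43 over both (SE 0.15, limma's adjusted p = 0.130). Ndufa4, named for complex I but now assigned to cytochrome c oxidase, read 1406.5, 1800.4, 1229.7 and 1138.5. It differed by -0.22 and -0.59, and by -0.40 over both (SE 0.16, limma's adjusted p = 0.158). After Sdha and Sdhb came Uqcr10 at -0.37 (limma's adjusted p = 0.175), Atp5md at -0.36 (limma's adjusted p = 0.238) and Atp5g2, a gene for the c-ring of ATP synthase, at -0.36 (limma's adjusted p = 0.183). With the mean of its probe sets Atp5g2 stood at -0.05, but its other probe set (22.5, 19.4, 30.2 and 25.6) lay below the filter level. Under PTHrP the lowest were Ndufs8 (-0.71), Atp5md (-0.62) and Ndufa4. The 6 probe sets of Ndufs8 above the filter level ran from -0.71 to -0.23 in that comparison. Among values above 0 were Atp5l, subunit g of ATP synthase (0.35 and 0.15), and Cox5a (0.06 and 0.31).

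Ndufa2 (0.33) and Cox8c (0.27) led their complexes in control medium, but under PTHrP they stood at -0.25 and 0.08. Ndufb9, another accessory subunit of complex I, differed by -0.03 and -0.57, the latter being -0.32 in its other probe set above the filter level. Further extremes of a complex were Cox7a2l, linked to the joining of complexes III and IV, at -0.19 and -0.40, and Cox4i1 at 0.03 and -0.42. Uqcrc1 was the highest of complex III in control medium (0.18), and Uqcr11 the lowest (-0.46) and Uqcrfs1 the highest (0.06) under PTHrP. Ndufa10 (0.07) and Atp5k (0.24) were the highest of complexes I and V under PTHrP. The probe sets of Atp5k ran from -0.51 to 0.24 there, so they disagree in direction.

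Paralogs and tissue isoforms were read as far as their probe sets allow. All 6 subunit genes below the filter belong to complex IV. Of these, Cox6a2 (36.6, 70.8, 46.5 and 28.6), Cox7a1 (12.8, 12.7, 6.2 and 6.5) and Cox8b (6.1, 4.3, 3.0 and 5.3) are forms of heart and skeletal muscle, Cox4i2 (41.4, 38.5, 55.3 and 57) is known from lung and Cox6b2 (16.1, 10.6, 24.5 and 9.0) from testis. The last was Cox7c (32.2, 18.7, 21.0 and 22.2), a ubiquitous subunit whose probe sets both lay below the filter. The general forms Cox4i1, Cox6a1, Cox6b1, Cox7a2 and Cox8a were all kept, as was Cox8c (120.0, 125.8, 140.5 and 136.4), named for testis. The c-ring genes, which encode the same mature protein, differed in the WT line by -0.02 (Atp5g1), 0.05 (Atp5g2) and 0.01 (Atp5g3). In control medium they differed between the lines by -0.01, -0.46 and -0.07, in the same order. The mean of its probe sets gave Atp5g2 -0.08 there, a mean that includes the probe set below the filter level.

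Several subunits have 2 or more probe sets above the filter level, which gives a check within an array. In the WT line 27 of 38 such genes had 1 sign over all these probe sets for PTHrP, and the range within a gene had a median of 0.21. In the R150C line 19 of 38 did. Between the lines it was 18 of 38 in control medium and 28 of 38 under PTHrP. Taken one by one, 104 of 127 subunit probe sets lay above 0 in the WT line (81.9%, against 56% of 9161 kept probe sets of all genes), and 102 lay below 0 between the lines under PTHrP. Probe sets of a gene share the RNA and the array, so they do not replicate the treatment.

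**Figure D4:**
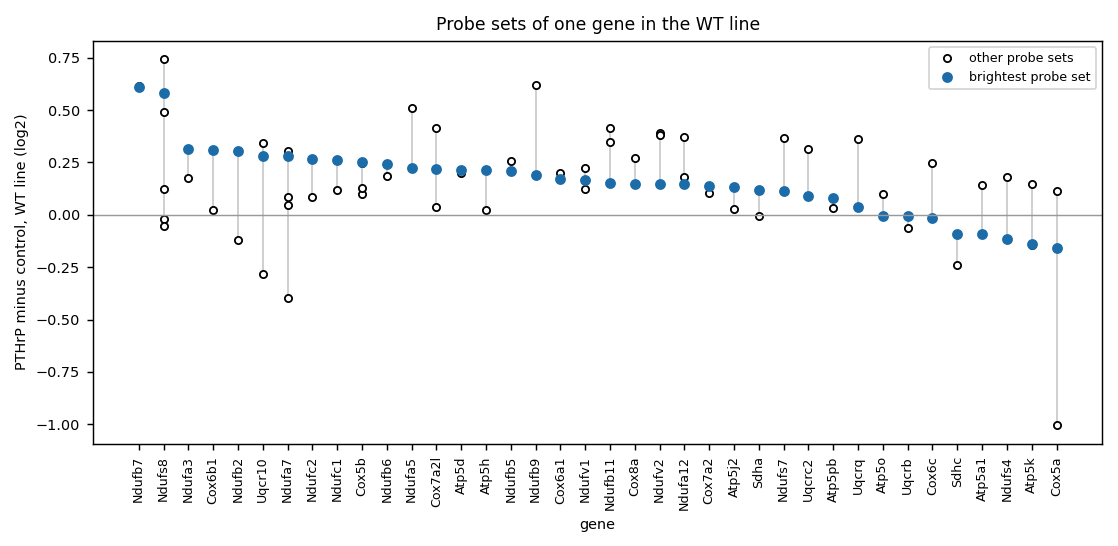
PTHrP minus control in the WT line, log2(signal + 16), for the 38 subunit genes with at least 2 probe sets above the filter level; filled points are the brightest probe set and open points the others, joined by a line. The 2 probe sets of Ndufb7 coincide near 0.61, while those of Ndufs8 run from -0.06 to 0.74.

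Other genes of the pathway were read from lists, whose calls stand against 5.21% of kept genes higher and 2.9% lower between the lines and 0% for PTHrP. Of 30 kept assembly factors, which build the complexes, none was called in either test, and the medians were 0.06 and -0.02 for PTHrP (WT, R150C) and -0.13 and -0.21 for the line comparison (control medium, PTHrP). The 5 kept electron carriers and entry points had -0.21 and -0.36 between the lines; among them Etfb, which brings electrons from fat oxidation, read 898.4, 1140.7, 685.4 and 868.6, and Cyc1, the cytochrome c1 of complex III that the symbol rule leaves out, 1157.4, 1401.4, 1036.1 and 1023.1. Cycs, cytochrome c, differed the other way, by 0.16 and 0.13. Mitochondrial ribosomal proteins (73 kept) had medians of 0.10 and 0.08 for PTHrP in the WT and R150C lines and -0.17 and -0.20 between the lines; 1 of the 73, Mrpl55, was lower in the R150C line (-0.64, limma's adjusted p = 0.0344). The 15 genes of pyruvate dehydrogenase and the citric acid cycle had 0.02, -0.03, 0.05 and -0.01 in the same 4 comparisons, with none called.

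Of 12 kept regulators of these genes and of mitochondrial DNA none was called, and their medians between the lines were 0.28 and 0.15. Pprc1, a coactivator of the PGC-1 family, read 128.7, 187.5, 274.8 and 238.4 (0.66 over both media, limma's adjusted p = 0.0771). Yy1 (0.39), Nrf1 (0.34) and Gabpa (0.30) were also above 0 and did not pass, with adjusted p by limma of 0.146, 0.194 and 0.244. The kept regulators below 0 were Polg2 (-0.17), Gabpb1 (-0.12) and Tfam (-0.11). Ppargc1a (31.5, 23.7, 20.9 and 5.5) and Ppargc1b (65.6, 71.9, 23.3 and 9.9), the other coactivators of that family, lay below the filter. Both read lower in both R150C arrays, as 28% of the kept genes did, but signals this dim were not tested. The 6 kept genes of coenzyme Q synthesis had medians from -0.09 to 0.03, and the 7 of adenine nucleotide and phosphate exchange ran from -0.09 to 0.05, with none called in either. Neither of the 2 uncoupling protein genes on the array reached the filter.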

How the data were processed

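RNA of the 4 samples was hybridised by the authors to Affymetrix arrays, and a linear intensity was deposited for every probe set. The submitters' processing notes name Affymetrix Expression Console, with no version or algorithm given. The deposited values carry a global scaling, with a trimmed mean of 150.1 in each array. From these, log2(signal + 16) was taken, probe sets that are not controls were quantile normalized with limma 3.58.1 (R 4.3.3), and the brightest probe set was kept for each gene. Quantile normalization was preferred to a single factor because an earlier look at these data showed bright genes shifted between arrays under it. The subunits are such bright genes. The median signal also differed between arrays, from 44.7 to 52.2, at an equal trimmed mean.

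An additive model (line and treatment) was fitted with limma over 6197 genes, with 1 residual degree of freedom, Benjamini-Hochberg adjustment at 0.05 and the departure from additivity as the sole error, so p-values reflect the spread among these arrays alone. The step was tested on simulated data with independent noise of the same spread in every gene. It was required to recover only line differences far larger than those of the subunits, so the check does not cover smaller ones. Genes were named by a rule: the extremes of each complex in each comparison, core subunits and isoforms. The members, lists and settings were chosen with earlier results of these data known. Regulators, electron carriers and members of other lists were named after their values were seen. The alternatives changed the scaling, the offset, the filter, the probe set rule and limma's prior. Promoters were matched by Entrez identifier; names follow the platform annotation.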

Additional observations from a re-analysis of the deposited data

Results flagged for a closer look

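Ndufa1, an accessory subunit of complex I, differed with PTHrP by 0.26 in the WT line and by -0.25 in the R150C line (log2), on signals of 1340.4 and 1704.4 in the first and 1623.7 and 1368.5 in the second. It was singled out because the lines moved in opposite directions, each by more than 1 SD of an array-to-array difference (0.24). It was the 1 subunit of 72 that did so, as did 241 of 6197 kept genes, and was named after its values were seen. The difference between the lines was not tested, since each group has 1 array.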

How the results depend on the processing

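The counts of subunits called by limma stayed at 0 in both tests and both directions under all 11 alternatives. The smallest adjusted p of a subunit ran from 0.057 to 0.339 between the lines and from 0.258 to 0.942 for PTHrP. The subunit median for PTHrP in the WT line was 0.15 and ran from 0.13 to 0.41, the last with centring on all probe sets, where the median of all kept genes was 0.22. Measured from the kept genes it ran from 0.07 to 0.20. The median in the R150C line was 0.01, and averaging every probe set of a gene gave -0.00030. Between the lines in control medium it was -0.07, but 0.0543 with centring on all probe sets, where the kept genes stood at 0.08. Under PTHrP it ran from -0.28 to -0.17, and the difference between the responses from -0.28 to -0.11. The share of complex I genes above 0 in the WT line ran from 90% to 100%, against 54.6% to 79.8% of kept genes. No paired analysis was possible because each group holds 1 array and the labels carry no replicate numbers, and no array could be left out of the fit for want of residual degrees of freedom. Precision is limited by having 4 arrays.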
